A study of Mus musculus with 55 samples.

Results

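Long interspersed nuclear elements (LINEs) are the remains of retrotransposons, and some of them lie in chromatin that is open in macrophages. Open regions were taken as LINE regions where the authors' deposited annotation of the region named a LINE element. This held for 3697 of the 97113 open regions (3.81%). Of these, 3043 (82.3%) were annotated to the L1 family, 508 (13.7%) to L2, 123 (3.33%) to CR1 and 23 to RTE. No signal value entered this choice.

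L1 is the youngest of these families in mammals, and in the mouse some L1 copies can still move. L2, CR1 and RTE copies are old, immobile remnants. Most copies of every family are truncated and silent, and a minority hold transcription factor sites and act as enhancers. Active enhancers and promoters carry H3K27ac, an acetyl group on lysine 27 of histone H3, and p300 is one of the enzymes that place it. In macrophages, lipopolysaccharide (LPS), a bacterial ligand of TLR4, induces and represses many enhancers within hours.

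H3K27ac and p300 had been measured by chromatin immunoprecipitation sequencing (ChIP-seq) in bone marrow-derived macrophages from C57BL/6 mice, grown with macrophage colony stimulating factor and serum-starved overnight. Treatment lasted 2 h or 6 h, with the vehicle PBS, with the milk oligosaccharide 3'-sialyllactose (3'SL, 100 µg/ml), with LPS (10 ng/ml), or with both agents. Each group had 2 libraries, numbered replicate 1 and 2, except the vehicle group of H3K27ac at 6 h and those of p300 at both times, which had replicate 2 only here. The series lists replicate 1 samples of these vehicle groups too, but no column of the deposited values was matched to them. The labels do not say that replicates came from separate mice or cultures, so p-values measure the spread between these libraries, which may be technical. Some labels disagree. Among H3K27ac libraries titled 2 h, replicate 1 with LPS, with 3'SL and with both has a treatment label of 1 h, and replicate 2 titled as both agents has a label of vehicle; titles were followed. The open regions themselves were peaks of the assay for transposase-accessible chromatin (ATAC-seq) from another study. Its macrophages were titled as untreated or as given Kdo2-lipid A, another TLR4 ligand, for 1 h.

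All 8 macrophage marker genes had an open region at their start, with 98.2 to 598 tags of H3K27ac per 10000000 in vehicle. None of 4 T cell and 3 B cell markers had one, and the single fibroblast and epithelial markers that did held 1.10 and 1.50. One of 3 neutrophil markers had such a region, at 29.8. H3K27ac libraries held 4200716 to 39597624 tags, of which 53.9% to 79.3% fell in open regions. Replicates of p300 differed: replicate 1 held 13557960 to 18130439 tags with 6.12% to 9.42% in open regions, and replicate 2 held 3199270 to 8754552 with 20.1% to 27.5%.

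The following 6 LINE regions carry the largest values or changes described below, and each sequence is the 200 bp window in which p300 was counted, from the GRCm38 (mm10) RefSeq genome. Capitals mark matches, on either strand, to 5 short motifs searched in every window: PU.1 (GAGGAAGT), AP-1 (TGANTCA), NF-kB (GGANTTTCC), the interferon-stimulated response element ISRE (GAAANNGAA) and C/EBP (TTGCNNAA). The first is shown for the highest H3K27ac and the second for the highest p300 in vehicle, the third for the largest H3K27ac rise and the fourth for the largest fall at 2 h of LPS. The fifth had the largest p300 rise at 2 h of LPS, and the sixth the highest p300 in vehicle among CR1 elements.
L1MC3 region near Atp6v0d2, chr4:19894682-19894881 (+ strand): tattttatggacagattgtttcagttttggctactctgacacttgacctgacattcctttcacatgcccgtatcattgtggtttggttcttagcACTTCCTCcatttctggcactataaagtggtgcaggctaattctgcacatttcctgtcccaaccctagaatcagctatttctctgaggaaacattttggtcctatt
Lx8b region near BC005537, chr13:24791402-24791601 (+ strand): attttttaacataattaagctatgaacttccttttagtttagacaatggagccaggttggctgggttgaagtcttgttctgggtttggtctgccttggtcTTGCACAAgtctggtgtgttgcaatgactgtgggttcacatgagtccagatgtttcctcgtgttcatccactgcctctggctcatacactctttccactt
L1M3 region near Stk31, chr6:49501591-49501790 (+ strand): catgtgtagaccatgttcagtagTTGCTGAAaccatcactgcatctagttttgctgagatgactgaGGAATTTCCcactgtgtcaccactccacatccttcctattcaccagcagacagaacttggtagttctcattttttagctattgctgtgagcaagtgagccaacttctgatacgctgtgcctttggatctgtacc
L1M4 region near Zfyve28, chr5:34238569-34238768 (+ strand): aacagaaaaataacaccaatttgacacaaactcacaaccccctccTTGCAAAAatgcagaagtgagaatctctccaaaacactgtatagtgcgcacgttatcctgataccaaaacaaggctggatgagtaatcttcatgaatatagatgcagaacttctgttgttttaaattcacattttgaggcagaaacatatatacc
L1ME1 region near Tm9sf4, chr2:153174342-153174541 (+ strand): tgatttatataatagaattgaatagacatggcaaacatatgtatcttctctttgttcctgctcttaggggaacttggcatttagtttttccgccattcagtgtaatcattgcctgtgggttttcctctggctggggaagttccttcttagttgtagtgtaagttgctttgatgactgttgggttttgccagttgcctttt
L3 region near St6gal1, chr16:23280523-23280722 (+ strand): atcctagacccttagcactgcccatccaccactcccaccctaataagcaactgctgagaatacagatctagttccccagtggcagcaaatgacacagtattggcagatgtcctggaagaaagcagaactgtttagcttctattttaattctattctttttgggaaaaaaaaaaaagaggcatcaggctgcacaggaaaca
A PU.1 match on the minus strand stood near the centre of the Atp6v0d2 window. The BC005537 and Zfyve28 windows each held 1 C/EBP match. In the Stk31 window, 1 C/EBP and 1 NF-kB match lay on the plus strand. The Tm9sf4 and St6gal1 windows held none of the 5 motifs.

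LINE regions lay farther from genes than open regions in general. Their median distance to the nearest annotated start was 31079 bp, against 15228 bp for all open regions, and 21 of them lay within 1000 bp of a start. All open regions include 20210 within 1000 bp of a start. The median was 27259 bp for regions of endogenous retroviruses (LTR) and 19234 bp for short interspersed elements (SINE). It was 25368 bp for distal regions without a repeat, which are intronic or intergenic and at least 1000 bp from a start. Introns held 1827 LINE regions and intergenic sequence held 1870. They carried 132 element names and had 2716 different genes as their nearest. Within L1, 1210 regions had the old L1M names, 1426 had Lx, L1_Mur, L1_Rod or L1VL names, which belong to rodents, and 342 had the mouse names L1Md, L1_Mm or L1_Mus; the remaining 65 were HAL1 and others. The authors' ATAC score, which the sources used here do not define, had a median of 11.4 in LINE regions and 13.3 in all regions. Pairs of LINE regions within 1000 bp of each other, whose H3K27ac windows overlap, numbered 139.

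With vehicle, about as many LINE regions carried both marks as carried neither. The ratio of a region's deposited value plus 1 to its input value plus 1 was taken as its level over input, input being sheared chromatin that was not immunoprecipitated. Averaged over vehicle libraries, 1217 LINE regions (32.9%) exceeded 2-fold over input for both H3K27ac and p300, 275 (7.44%) for H3K27ac alone, 854 (23.1%) for p300 alone and 1351 (36.5%) for neither. The p300 vehicle libraries are replicate 2 only, and under the other treatments replicate 1 had fewer LINE regions above 2-fold for p300 than replicate 2 (28.2% to 39.5% against 52.9% to 56.2%), so this balance was not measured in replicate 1. Over all open regions, 38.0% exceeded it for both marks and 29.4% for neither. The median LINE region stood at 1.26-fold over input for H3K27ac and 2.46-fold for p300. The p300 class rests on few tags. In the 2 h vehicle library 1 tag is worth 3.13, and the median LINE value was 6.25 against a median input of 2.43. In the 6 h one 1 tag is worth 1.41, and the median was 7.04. The only p300 input is of replicate 1. With a pseudocount of 4 in place of 1, the share above 2-fold in the 2 h vehicle fell from 50.8% to 41.9%. Across the 3697 LINE regions, Spearman's rho between the levels of the marks was 0.55, against 0.43 over all open regions. It was 0.53 for distal regions without a repeat, 0.50 for LTR and 0.49 for SINE regions. The points share libraries, and each mark was divided by its own input.

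The level over input rose from L1 to L2 to CR1. The median H3K27ac level in vehicle was 1.14-fold over input for L1, 2.02-fold for L2 and 3.26-fold for CR1. Both marks were above 2-fold in 30.9% of L1, 40.6% of L2 and 49.6% of CR1 regions. Within L1, the share was 41.1% for L1M names, 25.5% for the Lx, L1_Mur, L1_Rod and L1VL names and 16.7% for L1Md, L1_Mm and L1_Mus names, of which 62.0% exceeded 2-fold for neither mark. LTR regions, the remains of endogenous retroviruses, held both marks in 32.1% of cases and SINE regions, short interspersed elements, in 24.0%. Distal open regions without a repeat did so in 35.6%.

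The same order appeared in each library. The share of regions with H3K27ac above 2-fold was higher for CR1 than L2, for L2 than L1, for L1M than the Lx group and for the Lx group than the L1Md group in 15 of 15 libraries each. For L1 it ran from 34.3% to 39.8%, for L2 from 45.5% to 51.4%, and for CR1 from 52.8% to 64.2%. For p300, each step held in 14 of 14 libraries, except L2 over L1, which held in 13. LINE regions exceeded SINE regions in every library of both marks. Against LTR regions they were higher in 8 of 15 H3K27ac and 11 of 14 p300 libraries, so these classes were not separated by H3K27ac.

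**Figure D1:**
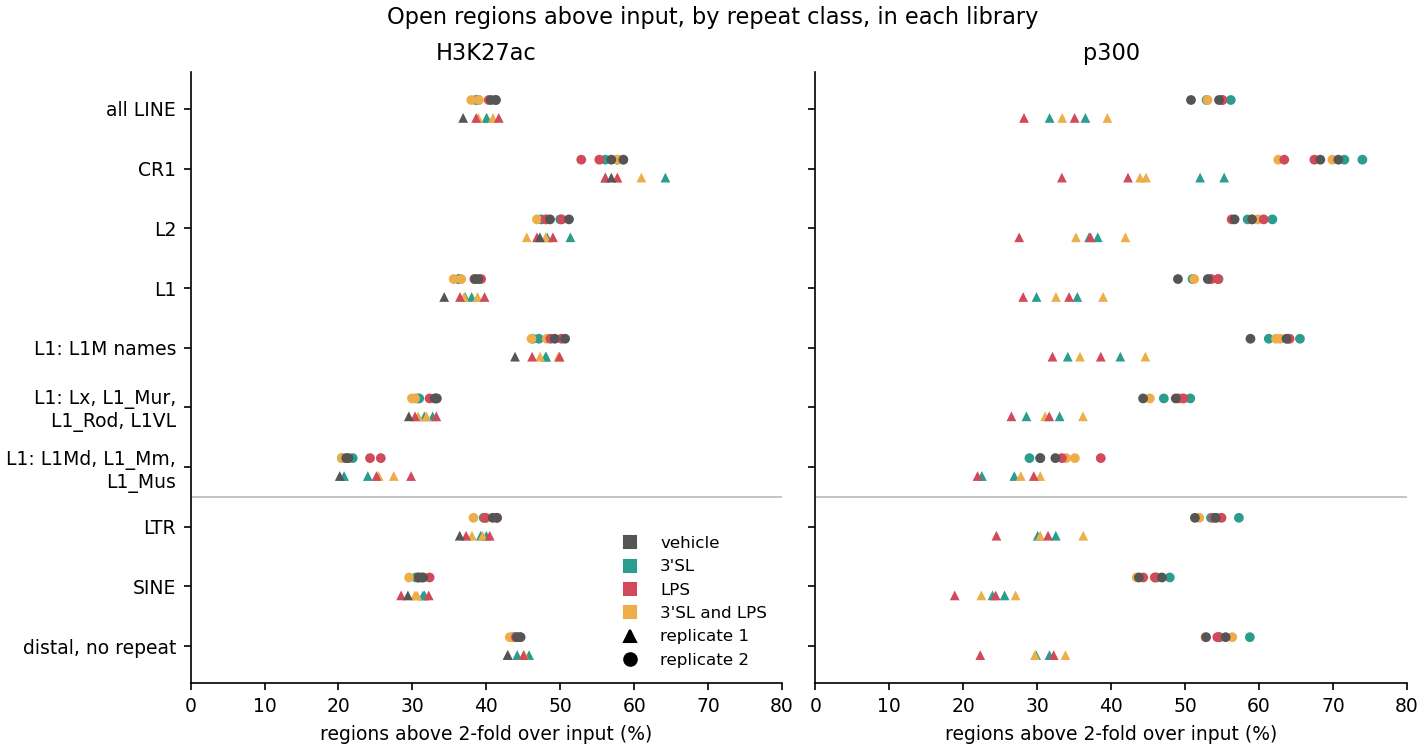
Share of open regions above 2-fold over input (x axis, percent) for H3K27ac (left) and p300 (right), by repeat class and LINE family (y axis); each point is 1 library, coloured by treatment, with triangles for replicate 1 and circles for replicate 2. CR1 regions lie right of L2 and L2 right of L1 for H3K27ac (34.3% to 39.8% for L1, 52.8% to 64.2% for CR1), and p300 libraries split by replicate.

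The share of LINE regions above input differed by a few percentage points between treatments. For H3K27ac, the share of LINE regions above 2-fold was 39.1% ± 3.12 (SD, n = 2) with vehicle at 2 h, 39.5% ± 1.20 (n = 2) with LPS, 39.3% ± 1.01 (n = 2) with 3'SL and 39.4% ± 2.07 (n = 2) with both. At 6 h it was 40.6% in the 1 vehicle library, 41.5% ± 0.268 (n = 2) with LPS, 39.5% ± 0.822 (n = 2) with 3'SL and 38.96% ± 0.0574 (n = 2) with both. The groups overlapped at 2 h. At 6 h both LPS libraries (41.7% and 41.3%) were above the vehicle library, both 3'SL libraries (40.1% and 38.9%) and both libraries with both agents (38.9% and 39.005%). With 2 libraries against 2, an exact permutation test cannot reach a p under 0.05, and none was run. For p300 the level went with the replicate number: replicate 1 libraries had 28.2% to 39.5% of LINE regions above 2-fold and replicate 2 libraries 50.8% to 56.2%, whatever the treatment.

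Repeat masking and input moved with the order of the L1 groups. The median H3K27ac input value was 8.33 tags per 10000000 for L1M, 6.63 for the Lx group and 5.32 for the L1Md group. The reference masks the centre of 10.8% of L1M, 34.4% of Lx group and 92.7% of L1Md group windows in lower case, and 6.10% of L2 and 6.504% of CR1 windows. For distal regions without a repeat it was 6.69%. The reference does not state how this mask was made. All these LINE regions are annotated to a repeat, so an unmasked centre does not mean that a region holds none. The sources used here do not say how reads with several mapping positions were treated, and the part of these values in the order was not tested. Position moved with the level too. H3K27ac was above 2-fold in 50.7% of the 760 LINE regions within 10 kb of a start, 41.6% of 2238 at 10 to 100 kb and 25.2% of 699 farther away.

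Single element names spanned a wide range. Among the 36 names with at least 30 regions, L1MA4 had the highest share of regions with H3K27ac above 2-fold in vehicle, 63.6% of 33 regions. It was followed by L2b with 61.4% of 88, L1MB8 with 60.8% of 51 and L3, a CR1 element, with 60.7% of 89. The lowest shares were all in the L1Md, L1_Mm and L1_Mus group, at L1_Mus4 (9.52% of 42), L1Md_F2 (17.0% of 47), L1_Mus1 (18.9% of 37) and L1_Mus3 (20.8% of 120). For p300, L1MB7 reached 79.4% of 68 regions and L1Md_F2 19.1%.

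The LINE regions with the highest H3K27ac in vehicle lay near genes of several kinds, none of them on the lists used below. Values of single regions are given from here on as rescaled tags, that is, tags per 10000000 after a further rescaling to the tags in open regions. The highest, an L1MC3 element in intron 2 of 7 of Atp6v0d2 (chr4:19894281-19895281), a subunit of the vacuolar proton pump, held 669.7 and 1221 in the 2 h vehicle libraries and 1289 in the 6 h one. The next were an Lx5 element with Dppa3 as nearest gene (808 and 1187 at 2 h, 1030.4 at 6 h) and an L2 element near Mir6367 (626 and 1114, 1045). An L3b element in intron 1 of 7 of Laptm5, a lysosomal membrane protein gene of blood cells, was among the 2 highest CR1 regions, at 429.5 and 752. The highest p300 in vehicle was at an Lx8b element 10156 bp upstream of BC005537 (chr13:24791001-24792001), with 714 at 2 h and 440.4 at 6 h.

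At several of the regions strongest in vehicle, no change passed the test. The Dppa3 Lx5 region ranged from 808 to 1187 rescaled tags of H3K27ac over the 7 libraries without LPS and from 734 to 1025 over the 8 with LPS, and these ranges overlap. An L1ME3A element in intron 2 of 5 of Clec4d, a C-type lectin receptor of myeloid cells, ran from 667 to 887 without LPS and from 914 to 1212 with it, which do not overlap. An Lx8b element 19748 bp upstream of Cd5l, a secreted macrophage protein, ran from 205 to 394 of p300 without LPS and from 232 to 405 with it. For these 3 regions the lowest adjusted p of any comparison in either mark was 0.18 (limma), at the Clec4d region for H3K27ac at 2 h of LPS.

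LPS for 2 h raised H3K27ac at 108 and lowered it at 65 of the 2865 LINE regions that passed the filter on low tags. The test was limma on log2(value + 1), with Benjamini-Hochberg adjustment over all 77387 regions tested and a threshold of 0.05. Over all of these, 5.14% were called, 3.08% higher and 2.07% lower. For LINE regions the shares were 3.77% and 2.27%, close to this background. In a bulk sample, fewer cells with the mark and less mark per cell cannot be told apart. By family, 85 of 2322 L1 regions rose and 48 fell, 15 and 10 of 422 L2 regions, and 6 and 6 of 102 CR1 regions. The L1Md, L1_Mm and L1_Mus group had 8 higher and 2 lower of 218. Of all 173 called, 162 (99 higher, 63 lower) were among the 1565 regions whose mean over all libraries exceeded 2-fold over input. That mean includes the LPS libraries, so a region that rose could pass through them alone. The count does not show that regions called higher had the mark in vehicle. The median LINE region changed by -0.01 on the log2 scale, against 0.01 over all regions tested.

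**Figure D2:**
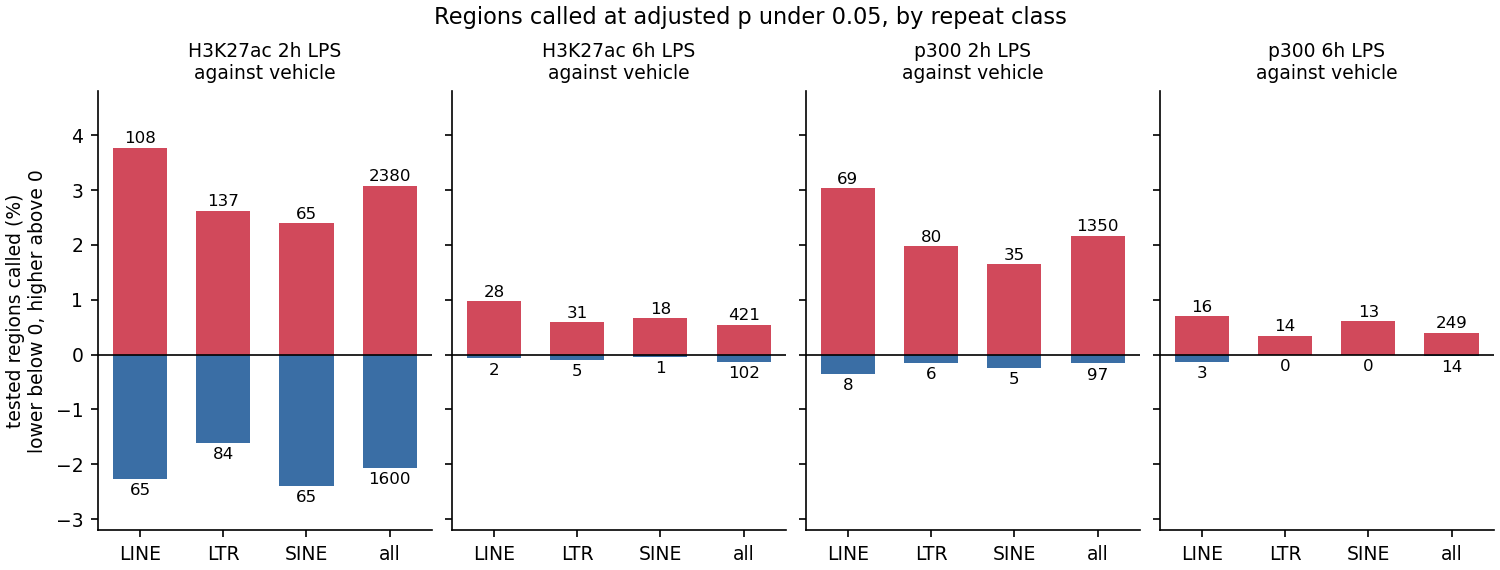
Percent of tested regions called at an adjusted p under 0.05 (y axis), higher above 0 and lower below 0, for LINE, LTR, SINE and all open regions in the comparisons of LPS with vehicle; the numbers are counts of regions. LINE regions were called higher in 3.77% and lower in 2.27% for H3K27ac at 2 h, with 3.08% and 2.07% over all regions.

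The largest rises began from nearly no H3K27ac. The L1M3 region 106086 bp from the start of Stk31 (chr6:49501190-49502190), a kinase gene of the germ line, held 1.85 and 3.08 rescaled tags with vehicle at 2 h and 106 and 160.1 with LPS (log2 change 5.26, SE 0.551, adjusted p = 0.00157). It held 3.56 with vehicle and 169 and 259.6 with LPS at 6 h, 2.52 and 1.86 with 3'SL at 2 h, 0.671 and 4.04 with 3'SL at 6 h, and 90.5 and 127 (2 h) and 114 and 122 (6 h) with both. All 8 libraries with LPS stood above all 7 without it. This is the window that holds the NF-kB and C/EBP letters printed above.

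Rnf145, an E3 ubiquitin ligase of sterol metabolism, has an Lx8 region 14819 bp upstream (chr11:44503645-44504645) that behaved alike. It held 4.62 and 6.17 with vehicle and 139 and 190.0 with LPS at 2 h (log2 change 4.69, SE 0.446, adjusted p = 0.00129). At 6 h the vehicle library held 4.45 and the LPS libraries 168 and 248 (log2 change 5.24, SE 0.546, adjusted p = 0.00939). With 3'SL alone it held 5.05 and 5.58 at 2 h and 3.35 and 6.06 at 6 h, and with both agents 143 and 140.4 at 2 h and 180.3 and 95.2 at 6 h. The libraries with and without LPS did not overlap.

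An L1_Mus4 region, from the element name with the lowest share above input, lay 11583 bp upstream of Has1, a hyaluronan synthase (chr17:17866271-17867271). It held 14.8 and 5.14 with vehicle, 225 and 330.4 with LPS and 210.1 and 233 with both at 2 h (log2 change 4.799, SE 0.553, adjusted p = 0.00236 for LPS against vehicle). At 6 h it held 23.2 with vehicle, 363 and 505 with LPS and 246 and 225 with both. 3'SL alone gave 9.25 and 28.8 at 2 h and 16.1 and 24.2 at 6 h, so the libraries with LPS stood apart from those without.

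An L2 region in intron 1 of 6 of Tab2 (chr10:7942707-7943707), an adaptor of the TAK1 kinase downstream of TLR4, had higher values at 2 h of LPS than at 6 h. It held 5.54 and 1.03 with vehicle and 108 and 82.97 with LPS at 2 h (log2 change 4.71, SE 0.546, adjusted p = 0.00243), and 9.796 with vehicle and 24.3 and 27.5 with LPS at 6 h. With both agents it held 92.4 and 75.9 at 2 h and 19.2 and 20.3 at 6 h. The test of the difference between the LPS effects at 6 h and 2 h gave a log2 difference of -3.40 (SE 0.864, unadjusted p = 0.00225), which did not pass adjustment (adjusted p = 1.00). No LINE region passed it for either mark, while 72 for H3K27ac and 93 for p300 had an unadjusted p under 0.05.

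The other 6 of the 10 largest rises had Traf1, Il27, Nampt, Slc39a14, Bcl2a1d and Appl1 as nearest genes. An L1ME1 region in intron 6 of 10 of Traf1, an adaptor of tumour necrosis factor receptors, had 0 tags in all 3 vehicle libraries and 19.6 and 36.4 rescaled tags with LPS at 2 h, at least 18.99-fold higher against a floor of 3 tags over the group. An L3 region 1221 bp upstream of Il27, which encodes a subunit of an interleukin that acts on T cells, held 7.39 and 1.03 with vehicle and 126 and 79.3 with LPS (log2 change 4.61, SE 0.934, adjusted p = 0.0183). The L1MEc region upstream of Nampt, the enzyme of NAD salvage, held 6.47 and 0 with vehicle and 90.04 and 44.4 with LPS (log2 change 4.56, SE 1.08, adjusted p = 0.0345). The remaining 3 were an L1_Mus3 region near Slc39a14, a zinc transporter, an L1_Mus2 region near Bcl2a1d, an anti-apoptotic gene with near-identical copies, and an Lx region in intron 16 of 21 of Appl1, an endosomal adaptor. Their log2 changes were 4.98, 4.88 and 4.59.

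**Figure D3:**
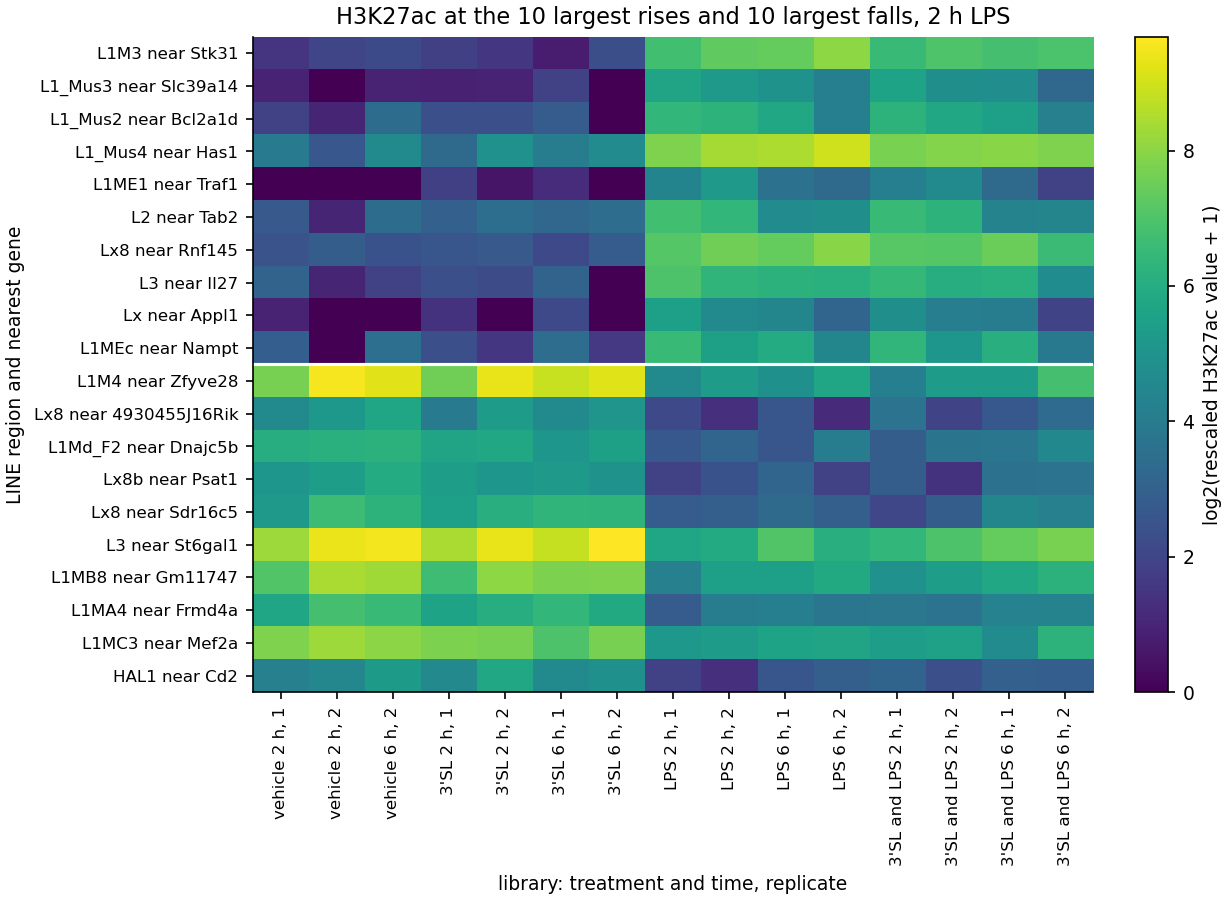
H3K27ac, as log2(rescaled value + 1) in colour, at the 10 LINE regions with the largest rises (above the white line) and the 10 with the largest falls (below it) at 2 h of LPS; rows are regions with their nearest gene and columns are the 15 libraries. These regions were chosen on the change between the 2 h LPS and vehicle libraries, with a spread estimated from all 15 libraries. The libraries with 3'SL and LPS (4 right-hand columns) have colours like those with LPS alone. At the Stk31 region they hold 90.5 to 127 rescaled tags.

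Several of the largest falls were at LINE regions with high H3K27ac in vehicle. An L1M4 region in intron 2 of 12 of Zfyve28 (chr5:34238168-34239168) held 204 and 742 with vehicle and 23.02 and 38.6 with LPS at 2 h (log2 change -3.66, SE 0.758, adjusted p = 0.0201). At 6 h it held 602 with vehicle and 27.8 and 51.1 with LPS. The replicates with vehicle differ by a wide margin here, yet both lie above all 8 libraries with LPS (17.1 to 113).

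St6gal1, the enzyme that attaches alpha-2,6-linked sialic acid to glycoproteins, contained 2 LINE regions that fell. The L3 region in intron 2 of 7 of 1 of its transcripts, 9848 bp upstream of the nearest annotated start (chr16:23280122-23281122), held 309 and 669 with vehicle and 52.1 and 58.95 with LPS at 2 h (log2 change -3.01, SE 0.487, adjusted p = 0.00729). The other groups held 353 and 659 (3'SL, 2 h), 83.6 and 125 (both, 2 h), 724 (vehicle, 6 h), 453 and 820.3 (3'SL, 6 h), 132 and 65.6 (LPS, 6 h) and 169 and 212 (both, 6 h). Every library with LPS was below every library without it. The L2a region in intron 1 of 6, 24624 bp from the start (chr16:23314594-23315594), went from 136 and 249.7 to 44.7 and 62.6 at 2 h (log2 change -1.78, SE 0.433, adjusted p = 0.0387).

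The Atp6v0d2 L1MC3 region, the most acetylated one in vehicle, fell as well, to 185 and 245 at 2 h of LPS (log2 change -2.08, SE 0.381, adjusted p = 0.0121). It held 587 and 1039 with 3'SL at 2 h, 823 and 988 with 3'SL at 6 h and 356 and 498 with LPS at 6 h. With both agents it held 178 and 249.5 at 2 h and 374 and 573 at 6 h. Other falls were at an L1MC3 region 85226 bp from Mef2a, a transcription factor gene (221 and 308 with vehicle, 34.5 and 38.6 with LPS), and at an L1Md_F2 region upstream of Dnajc5b (63.7 and 69.9 with vehicle, 5.42 and 8.01 with LPS). The remaining 6 of the 10 largest falls were near 4930455J16Rik, Psat1, Sdr16c5, Gm11747, Frmd4a and Cd2, with log2 changes from -3.19 to -2.76.

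The libraries with 3'SL are in neither group of that comparison, but they entered its estimate of the spread. Regions whose 3'SL libraries agreed were thus more readily called, so the following counts are not independent of the calls. Of the 108 LINE regions called higher at 2 h, 108 were higher in 3'SL with LPS than in 3'SL alone, with a median log2 difference of 2.56, and of the 65 called lower, 65 were lower, by a median of -1.67. At all 173 regions the libraries of these groups did not overlap, as at 2374 of the 2380 regions called higher and 1597 of the 1600 called lower over all regions tested. Of the 173 calls, 155 were also made by edgeR's quasi-likelihood test and 115 by limma with precision weights, and 20 held without any 1 of the 4 libraries. Of the 23 regions named for this comparison, those held were at Stk31, Has1, Tab2 and Rnf145. Leaving out 1 library left 30 called (without vehicle replicate 2), 98 (vehicle replicate 1), 41 (LPS replicate 1) or 49 (LPS replicate 2). Over all regions tested, 2378 of the 2380 higher and all 1600 lower calls had the same direction in the 3'SL libraries.

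At 6 h of LPS, 28 LINE regions were called higher and 2 lower for H3K27ac (0.977% and 0.0698% of 2865), against 0.544% and 0.132% of all regions tested, 0.676% in all. The largest rise was at a HAL1 element in intron 2 of 6 of Slx4ip (chr2:136909478-136910478), with 1.78 rescaled tags in the 1 vehicle library and 314 and 189 with LPS. This vehicle value rests on 2 tags, and the ratio of pooled tags was 152 (95% counting interval 41.8 to 1254). At 2 h the region held 8.31 and 3.08 with vehicle and 124 and 103 with LPS. The Stk31 and Rnf145 regions were next, followed by an L1ME3A region upstream of Ptpn1, a tyrosine phosphatase (6.23 with vehicle, 244 and 244 with LPS), and an L1M4 region near Kcng3, a potassium channel subunit (3.56 with vehicle, 77.8 and 179.6 with LPS).

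The 2 falls were an L1M3 region in an intron of 1700026D11Rik (48.98 with vehicle, 4.28 and 3.93 with LPS) and an L2b region near Taar8b (187 with vehicle, 23.6 and 28.8 with LPS). In the libraries with 3'SL, which also entered the estimate of the spread, 27 of the 28 and both of the 2 moved the same way at 6 h. Over all regions tested, 420 of the 421 called higher and 102 of the 102 called lower did so. With 1 vehicle library, which the model takes to vary like the other groups, the number called depended on the fit. The edgeR quasi-likelihood test called 7 LINE regions, and limma with precision weights 0 (387 at an unadjusted p under 0.05). On the authors' scaling limma called 19, with no filter 24 and with a pseudocount of 4 it called 35. The count with a replicate block was larger and is given in the last section, with those that leave out a library.

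For p300, LPS at 2 h was called to raise 69 and lower 8 of 2278 LINE regions (3.03% and 0.351%), against 2.17% and 0.156% of the 62225 regions tested, 2.33% in all. By family these were 54 and 5 of 1818 L1 regions, 12 and 1 of 349 L2 regions and 2 and 1 of 95 CR1 regions. The comparison has 1 vehicle library, of 3199270 tags, and 36 of the 77 called regions (46.8%) had 0 tags there, against 15.9% of LINE regions tested. The edgeR quasi-likelihood test called 4 LINE regions, with 357 at an unadjusted p under 0.05, and limma with precision weights or on the authors' scaling called 0, with 245 and 212. The 4 were the Tm9sf4, Dst, Zfyve28 and Atp6v0d2 regions, each at an adjusted p of 0.0490. Without LPS replicate 1 limma called 16, and without LPS replicate 2 it called 22. Of the 20 named regions, 7 kept the call both times, those at Tm9sf4, Dtwd1, Tnfrsf11a, Cd38, F930015N05Rik, Dst and Zfyve28.

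The L1ME1 region in intron 1 of 17 of Tm9sf4 (chr2:153173941-153174941) had the largest rise. It held 0 rescaled tags of p300 with vehicle at 2 h and 180.0 and 97.1 with LPS, at least 22.1-fold higher against a floor of 3 tags (limma adjusted p = 0.000293). The other groups held 24.1 and 61.9 (3'SL, 2 h), 171 and 199 (both, 2 h), 14.9 (vehicle, 6 h), 54.7 and 37.8 (3'SL, 6 h), 64.7 and 70.2 (LPS, 6 h) and 80.7 and 37.04 (both, 6 h). The 2 h vehicle library stood below every other library, the 6 h vehicle one included. The LPS effect at 6 h minus that at 2 h was -4.96 on the log2 scale (SE 1.01, unadjusted p = 0.000144), which did not pass adjustment (adjusted p = 1.00). H3K27ac there was 40.6 and 21.6 with vehicle and 324 and 373 with LPS at 2 h.

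Other p300 rises also began from 0 tags. An L1MEc region in intron 1 of 97 of Dst, a linker of the cytoskeleton, went from 0 to 77.6 and 61.8 at 2 h, at least 11.03-fold, with 8.53 in the 6 h vehicle library. An L2 region in intron 1 of 7 of Cd38, an NAD-consuming enzyme, went from 0 to 81.7 and 102, and its H3K27ac from 25.9 and 24.7 to 279 and 169.6. At an L1ME1 region 83616 bp from Tnfrsf11a, which encodes the receptor RANK, p300 went from 0 to 83.1 and 144. The others of the 10 largest rises were near Dtwd1, Il27, Nampt, F930015N05Rik, Slc39a14 and 9130015A21Rik. Of these, the Il27, Nampt and Slc39a14 regions are among the 10 largest H3K27ac rises.

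The 8 falls of p300 at 2 h included both St6gal1 regions and the Atp6v0d2 region. The St6gal1 L3 region held 235 with vehicle and 20.8 and 11.8 with LPS (log2 change -3.82, SE 0.739, adjusted p = 0.0113), and the L2a region of the same gene 237 with vehicle and 8.31 and 26.5 with LPS (log2 change -3.89, SE 0.857, adjusted p = 0.0243). The Atp6v0d2 region held 332 with vehicle and 29.1 and 30.9 with LPS (log2 change -3.42, SE 0.622, adjusted p = 0.00769). The Zfyve28 region held 192 with vehicle and 9.69 and 8.83 with LPS (log2 change -4.24, SE 0.772, adjusted p = 0.00793). The other 4 were near St8sia4, a polysialyltransferase gene, Tep1, Gm11747 and Maf. H3K27ac fell too at 6 of the 8, the exceptions being the St8sia4 and Tep1 regions.

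**Figure D4:**
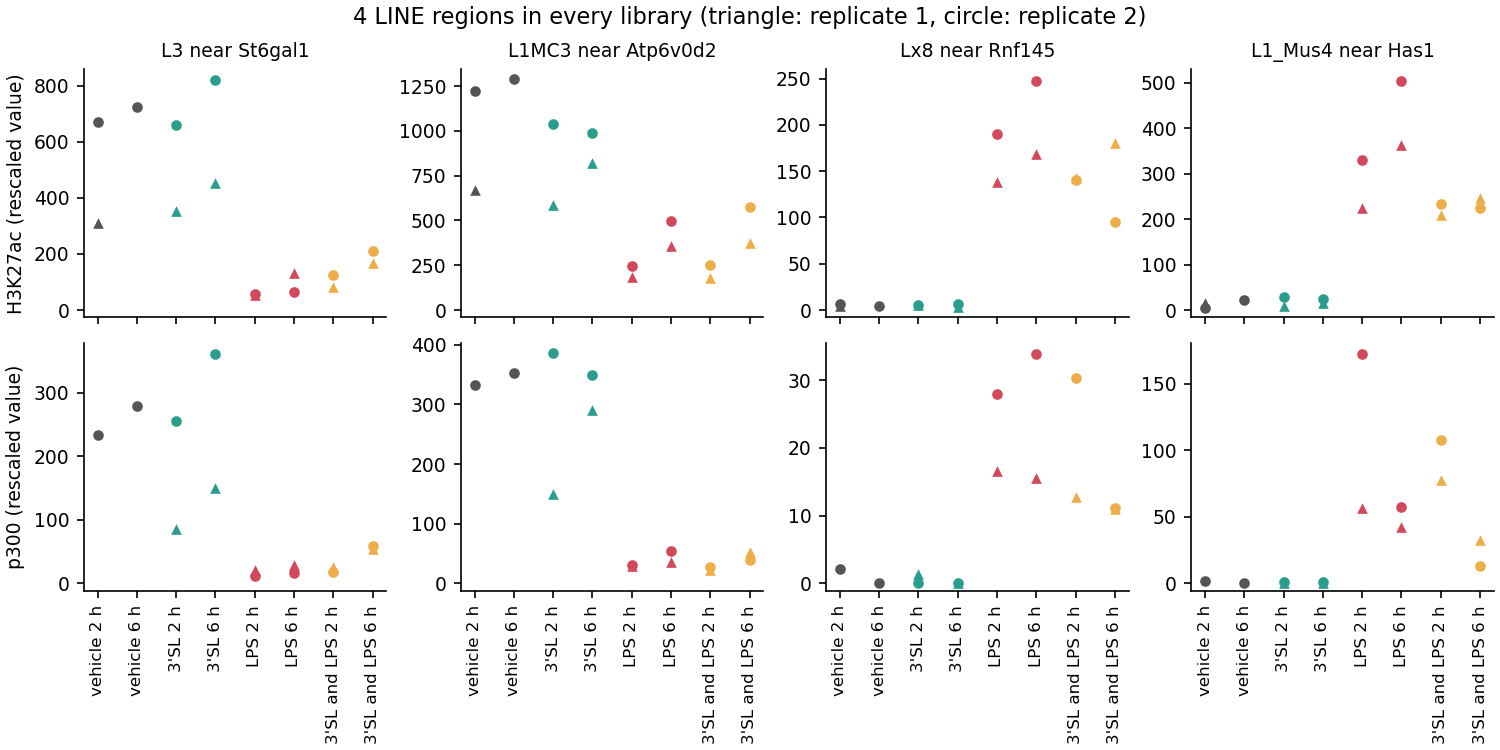
Rescaled values of H3K27ac (top) and p300 (bottom) at 4 LINE regions in every library, with treatment and time on the x axis; triangles are replicate 1 and circles replicate 2. H3K27ac at the St6gal1 L3 region lies between 309 and 820.3 without LPS and between 52.1 and 212 with LPS, and the Rnf145 and Has1 regions show the opposite change.

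The p300 changes at 6 h were fewer, 16 higher and 3 lower of 2278 (0.702% and 0.132%), against 0.4% and 0.0225% of all regions, 0.423% in all. The Slx4ip HAL1 region was the highest again, with 0 tags in the 6 h vehicle library and 169.5 and 103 with LPS, at least 39.6-fold. An Lx9 region near 9130230L23Rik followed, from 0 to 123 and 110.3. The falls were at an L3b region upstream of F630028O10Rik (68.2 with vehicle, 0 and 1.25 with LPS), the St6gal1 L3 region (279 with vehicle, 28.99 and 16.3 with LPS) and the Atp6v0d2 region (352 with vehicle, 35.7 and 53.9 with LPS). None of the 19 was called by edgeR's quasi-likelihood test, which gave 316 LINE regions an unadjusted p under 0.05, or by limma with precision weights (275). Without either LPS library 1 was called.

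The median p300 change of LINE regions lay above that of all regions, by an amount that depended on the libraries used. At 2 h of LPS the median log2 change was 0.27 over LINE regions and 0.11 over all regions tested, and at 6 h 0.27 and -0.05. LTR, SINE and distal regions without a repeat had 0.10, 0.13 and 0.14 at 2 h. At 6 h they had 0.20, 0.13 and 0.07, also above all regions. Within replicate 2 the medians were closer at 2 h, 0.18 over LINE regions and 0.14 over all, and at 6 h they were 0.20 and 0.00336. The LTR, SINE and distal medians within replicate 2 were 0.02, 0.06 and 0.06 at 2 h. At 6 h they were 0.20, 0.16 and 0.11, so LTR regions then matched LINE regions. Replicate 1 has no p300 vehicle library here. Kept on the authors' scaling, the medians of all regions moved to -0.68 and -0.96 and those of LINE regions to -0.52 and -0.63, so the sign depends on the scaling. The gap between LINE and all regions was 0.16 at 2 h and 0.32 at 6 h in both scalings, with both replicates of LPS.

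At most LINE regions called for H3K27ac, the fitted p300 change had the same sign. Of 2190 LINE regions tested for both marks at 2 h of LPS, 39 were called for both, 127 for H3K27ac alone, 38 for p300 alone and 1986 for neither. Among rises, 33 were shared, 32.04% of the 103 H3K27ac calls and 47.8% of the 69 p300 calls. Among falls, 6 were shared, 9.52% of the 63 H3K27ac calls, and all but the St8sia4 and Tep1 regions of the 8 p300 calls. Where H3K27ac was called higher, the fitted p300 change was above 0 at 100 of 103, with a median log2 change of 2.86, and where it was called lower it was below 0 at 53 of 63, with a median of -1.43. Spearman's rho between the changes over the 2190 regions was 0.56. The marks were measured in separate libraries with separate vehicle samples. The shared calls, signs and rho were taken over LINE regions only. Without the same values over all open regions, they are not read as particular to LINE regions.

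**Figure D5:**
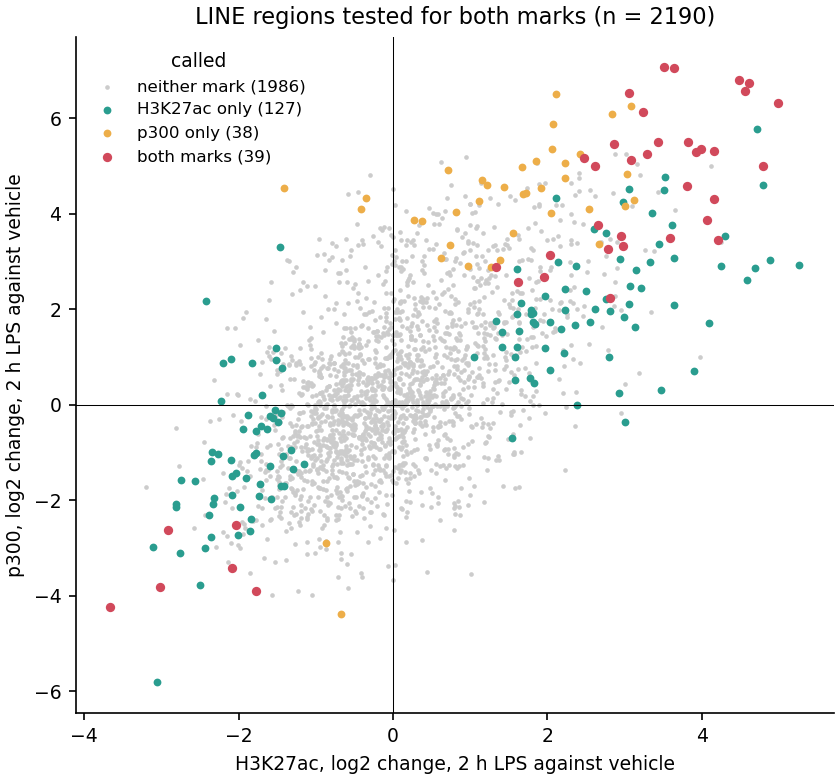
Log2 change at 2 h of LPS against vehicle for H3K27ac (x axis) and p300 (y axis), 1 point for each of the 2190 LINE regions tested for both marks, coloured by the mark in which it was called. The 39 regions called for both lie in the upper right (33) and lower left (6).

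Given alone, 3'SL changed 1 LINE region past the threshold. Against vehicle, 0 of 2865 LINE regions were called for H3K27ac at 2 h or 6 h (24 and 37 at an unadjusted p under 0.05; 0 by edgeR, with 22 and 33), and 0% of all regions were. For p300, 1 of 2278 was called at 2 h, against 0.0145% of all regions (9 of 62225), and 0 at 6 h (72 unadjusted; 0 by edgeR, with 75). The 1 was the Tm9sf4 L1ME1 region, 0 with vehicle and 24.1 and 61.9 with 3'SL (log2 change 5.31, SE 0.715, adjusted p = 0.0349). It uses the same vehicle library at 0 tags as the LPS comparison, and edgeR and limma with precision weights did not call it. At 6 h that region held 14.9 with vehicle and 54.7 and 37.8 with 3'SL.

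Added to LPS, 3'SL changed no LINE region past the threshold. For 3'SL with LPS against LPS, 0 LINE regions were called for H3K27ac at 2 h or 6 h (9 and 35 unadjusted; 0 by edgeR, with 12 and 23) or for p300 (35 and 81; 0 by edgeR, with 36 and 50), and 0% of all regions were called in each. Median log2 differences over LINE regions were -0.05 and -0.01 for H3K27ac and -0.03 and 0.01 for p300, at 2 h and 6 h. At the St6gal1 L3 region H3K27ac was 52.1 and 58.95 with LPS and 83.6 and 125 with both at 2 h, and 132 and 65.6 with LPS and 169 and 212 with both at 6 h (log2 change 0.87, SE 0.487, adjusted p = 1.00 at 2 h). At the Ccl5 L1MEa region it was 454 and 388 with LPS and 399 and 267 with both at 2 h, and 274 and 160.0 with LPS and 265 and 71.4 with both at 6 h (log2 change -0.60, SE 0.655, adjusted p = 1.00 at 6 h). With 2 libraries per group, a miss of the threshold does not show that the values were alike.

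LINE regions near inflammatory genes were few, and those that passed the test rose. In a list of 44 NF-kB target and inflammatory genes, 11 had a LINE region as a neighbour, 13 regions in all. At 2 h of LPS, H3K27ac rose at 4 of the 13 and fell at 0, with a median log2 change of 1.85, and p300 rose at 3, with a median of 2.90. Over all regions tested, 3.08% were called higher for H3K27ac with a median log2 change of 0.01, and 2.17% for p300 with a median of 0.11. The L1MEa region 20053 bp upstream of Ccl5 (chr11:83550071-83551071), a chemokine that draws T cells and monocytes, held 33.3 and 17.5 of H3K27ac with vehicle and 454 and 388 with LPS (log2 change 4.06, SE 0.655, adjusted p = 0.00724). Its p300 was 12.7 with vehicle and 238 and 163 with LPS (log2 change 3.86, SE 0.704, adjusted p = 0.00793). The other H3K27ac rises were at Traf1, at an L1_Mus3 region near Birc3, a ubiquitin ligase of NF-kB signalling (0.924 and 4.11 with vehicle, 21.7 and 29.1 with LPS), and at an L2 region near Edn1, which encodes endothelin (4.62 and 9.25 with vehicle, 59.6 and 148 with LPS).

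Further p300 rises of that list were at an L1MA6 region upstream of Ccl7, a monocyte chemokine (8.45 with vehicle, 55.4 and 86.8 with LPS), and at an Lx8 region upstream of Il1a, an interleukin of the IL-1 family (2.11 with vehicle, 70.6 and 33.8 with LPS). At 6 h, 1 of the 13 rose for H3K27ac, the Birc3 region (log2 change 4.39, adjusted p = 0.0292). Of 11 tested regions near interferon response genes, 2 rose at 2 h, an L1MB7 region in intron 7 of 7 of Mx1 (log2 change 3.64, adjusted p = 0.00996) and an Lx8 region in intron 1 of 10 of Gbp2 (3.90, adjusted p = 0.0283), both antiviral GTPases. These 2, and the Trem2, Maf L3 and Il10 regions given next, were picked out after their values were seen.

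Near genes of macrophage identity, 3 of 15 LINE regions fell for H3K27ac at 2 h and none rose, against 2.07% lower and 3.08% higher over all regions tested. An L4_B_Mam element, of the RTE family, 94634 bp from Maf, a transcription factor of resident macrophages, held 362 and 445 with vehicle and 101 and 93.9 with LPS (log2 change -2.03, SE 0.254, adjusted p = 0.00296), and its p300 218 with vehicle and 49.9 and 27.96 with LPS. The others were an L3 region near Maf (log2 change -2.39, adjusted p = 0.00404) and an L1MC5 region near Trem2, a lipid-sensing receptor (-1.59, adjusted p = 0.0468). Of 9 regions near TLR4 signalling genes the Tab2 region rose, and of 3 near anti-inflammatory genes 0 were called for H3K27ac, while p300 rose at an L2 region near Il10 (log2 change 4.98, adjusted p = 0.0359). None of the 2 regions near LXR target genes and 3 near cholesterol synthesis genes was called. Nearest gene is a matter of distance, and none of these pairs was tested for contact.

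The authors' deposited peak lists were laid over the 200 bp windows. LXR is a sterol-activated nuclear receptor and SREBP a regulator of lipid synthesis. The lists name no samples, but every LXR and SREBP sample came from cells given the compound GW3965. Their binding in the vehicle or LPS cells was not measured. Peaks of LXR overlapped 22.4% of LINE regions, close to the 22.5% of all open regions, SREBP peaks 27.97% against 22.2%, and p300 peaks 46.3% against 34.1%. Regions more like them were closer: SREBP peaks overlapped 24.6% of LTR and 24.8% of distal regions without a repeat, and p300 peaks 42.4% and 40.2%. By family, LXR peaks overlapped 20.3% of L1, 30.1% of L2 and 41.5% of CR1 regions, and p300 peaks 44.9%, 50.2% and 62.6%. The p65 list covered 1.76% of LINE regions and 1.58% of all. It holds 41220 peaks and overlapped 1538 of the 97113 open regions, while the 24480 LXR peaks overlapped 21867. The genome build of the p65 list was not checked, so its low overlap is not read as a result about p65.

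Peak overlap was also counted among the regions called for H3K27ac at 2 h of LPS. The LXR and SREBP peaks are those of cells given GW3965, so binding under LPS was not tested. For LXR it was 45 of 65 (69.2%) for those called lower and 41 of 108 (38.0%) for those called higher, with 28.6% of LINE regions tested. For SREBP it was 56.9%, 33.3% and 35.1%, and for p300 peaks 81.5%, 59.3% and 57.1%. Of the regions called lower 63 of 65, and of those called higher 99 of 108, had a mean H3K27ac above 2-fold over input. This mean was over all libraries, those with LPS included, so the rises themselves add to it. The part of signal strength in these overlaps was not tested. All 10 largest falls except the 4930455J16Rik and Dnajc5b regions had a p300 peak.

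Motif letters were counted in all LINE windows and in the called ones. Over all LINE windows, a PU.1 match stood in 13.5% (9.68% of all open regions), AP-1 in 18.2% (17.2%), NF-kB in 1.65% (1.67%), ISRE in 10.5% (7.79%) and C/EBP in 14.6% (10.3%). In LTR, SINE and distal windows without a repeat, PU.1 stood in 21.3%, 6.53% and 10.4%. AP-1 stood in 20.3%, 23.1% and 20.5% of these, each above the LINE share. ISRE stood in 7.90%, 7.98% and 8.72%, and C/EBP in 10.3%, 8.97% and 11.7%, each below it. NF-kB stood in 1.72%, 0.710% and 1.91%. NF-kB letters were in 6 of the 108 windows called higher for H3K27ac at 2 h of LPS (5.56%), in 7 of the 69 called higher for p300 (10.1%) and in 0 of the 65 called lower for H3K27ac. PU.1 letters were in 6.48% and 2.90% of the windows called higher, and in 15.4% of those called lower. These counts are small, a match is not a bound site, and motifs can overlap one another. In the L1Md, L1_Mm and L1_Mus group AP-1 letters were in 6.14% of windows and C/EBP letters in 18.4%.

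One young L1 region had more input than any other LINE region. The L1_Mm region in intron 2 of 2 of Erdr1 on chromosome Y (chrY:90804689-90805689) had a mean input of 79.5 tags per 10000000 in the H3K27ac inputs, and 52.8 in the p300 input, against LINE medians of 7.15 and 2.43. Its H3K27ac was 39.7 and 2.06 in the replicate 1 and 2 vehicle libraries at 2 h, 37.2 and 0.728 with LPS, 34.5 and 3.26 with 3'SL and 44.9 and 5.901 with both. In each group replicate 1 was high and replicate 2 low. The inputs split the same way, at 92.2 and 139.9 in replicate 1 and 6.24 in the pooled replicate 2 input. The next highest, an Lx8b region near Clec4a3, had an input of 22.5 and held 186 and 386 of H3K27ac with vehicle at 2 h.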

How the data were processed

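H3K27ac and p300 ChIP-seq signal was taken from the authors' deposited tables, which, per the file headers, were made with HOMER annotatePeaks as tags per 10000000 in 1000 bp (H3K27ac) or 200 bp (p300) windows at each open region. The deposited ATAC score of each region and the deposited peak scores were used as given. Per the submitters' processing notes, Bowtie2, HOMER and DESeq2 were used with the build mm10. Dividing by the value of 1 tag gave whole tags for 100% of values (tolerance 0.05). 5 columns that match no sample were not used.

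Regions with low tags were dropped with edgeR 4.0.16 (filterByExpr). Values were rescaled by the tags in open regions and TMM factors, and log2(value + 1) was fitted with limma 3.58.1 (trend) in R 4.3.3, as group means over all 15 H3K27ac or 14 p300 libraries; Benjamini-Hochberg adjustment covered all regions tested. The untimed vehicle H3K27ac library stayed out of the fit. The method was tested on simulated data. Alternatives were the authors' scaling, a pseudocount of 4, no filter, a replicate block, edgeR's quasi-likelihood test on recovered tags, leaving out each library and, added after the data were seen, precision weights. Descriptions used Python 3.11.15, pandas 2.3.3 and scipy 1.17.1, and sequences pysam 0.24.0.

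Named regions were the largest called changes whose groups did not overlap, in each comparison and direction (10 at 2 h of LPS, 5 otherwise), the 5 highest in vehicle for each mark and 2 each of L2 and CR1, the 5 highest inputs, and called regions near inflammatory or LXR target genes. The regions and lists were chosen with earlier results of these data known. Starts were checked against RefSeq (3448 of 3614 within 10 bp).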

Additional observations from a re-analysis of the deposited data

Results flagged for a closer look

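Among the immunoprecipitated libraries whose values were matched to a column, 1 lay outside every comparison. The series also lists an untimed p300 vehicle sample, a p300 sample with GW3965 and further vehicle samples of replicate 1, to which no column was matched. The vehicle H3K27ac library of replicate 1 whose title gives no time had 33.5% of LINE regions above 2-fold over input, and its median LINE value was 8.05 tags per 10000000, against 7.70 for the highest input median. It was not used in any test.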

How the results depend on the processing

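The p300 2 h vehicle library holds 3199270 tags, and 36 of the 77 LINE regions called against it have 0 tags there. The number of LINE regions called at 2 h of LPS for H3K27ac was 173, and 115 with precision weights, 709 with the replicate block (382 higher, 327 lower) and 30 to 98 without 1 library. For H3K27ac at 6 h it was 30, and 19 on the authors' scaling, 7 with edgeR, 0 with precision weights, 334 with the replicate block (206 higher and 128 lower, against 28 and 2) and 0 to 1 without 1 library. For p300 at 2 h it was 77, and 0 on the authors' scaling, 4 with edgeR, 0 with precision weights, 50 with a pseudocount of 4, 232 with the replicate block (179 higher, 53 lower) and 16 to 22 without 1 library. For p300 at 6 h it was 19, and 0 on the authors' scaling, with edgeR and with precision weights, 88 with the replicate block (79 higher, 9 lower) and 1 to 1 without 1 library. For 3'SL alone, the 1 p300 call at 2 h became 0 on the authors' scaling, with edgeR, with precision weights, with a pseudocount of 4 and without 1 library (0 to 0), and 8 with the replicate block. The cause was not tested. Of the 59 calls of named regions, 26 were also made on the authors' scaling, 28 with edgeR, 17 with precision weights, 53 with no filter, 53 with a pseudocount of 4 and 59 with the replicate block; leaving out 1 library at a time kept 59 of 164. None changed direction in any of these.

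Median log2 changes of LINE regions moved with the scaling. On the authors' scaling they were -0.52 (p300, 2 h LPS), -0.63 (p300, 6 h LPS), -0.46 (p300, 2 h 3'SL), -0.53 (p300, 6 h 3'SL), 0.32 (p300, 6 h, both against LPS) and 0.0278 (H3K27ac, 2 h 3'SL). For p300 and LPS the median was 0.50 with no filter at 2 h and 0.12 with the replicate block at 6 h. Without 1 library the median ran from -0.12 to -0.0274 for H3K27ac at 2 h of 3'SL, and for p300 with both against LPS from -0.18 to 0.17 at 2 h and from -0.0927 to 0.18 at 6 h. With a pseudocount of 4, the share of LINE regions above 2-fold over input in the 2 h vehicle was 35.3% for H3K27ac and 41.9% for p300. Counting a peak only where its centre lay within 100 bp gave overlaps of 20.8% (LXR), 26.2% (SREBP) and 44.2% (p300). The labels do not say that replicate numbers pair the libraries. Deviations of same-numbered libraries correlated at 0.46 for H3K27ac at 2 h (LPS with vehicle), and between 0.28 and 0.67 in the other comparisons with 2 libraries in each group.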
